A study of Mus musculus with 8 samples.

Results

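Epithelial and mesenchymal identity was described in mouse C26 tumors by 10 genes, out of 27179 genes with a value for every tumor. The genes were taken by symbol. Cdh1, Epcam, Krt8 and Krt18 stood for epithelial cells, Vim and Cdh2 for mesenchymal cells, and Zeb1, Zeb2, Snai1 and Snai2 for the transcription factors that repress epithelial genes. The question was how their RNA levels differed between tumors that grew from cells with and without a working gene for interleukin-6 (Il6), a secreted cytokine.

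C26 is a mouse colon carcinoma line, and cxC26 is the stock of it that causes cachexia, a wasting of body weight. The 4 cxC26 scr tumors grew from cxC26 cells that carried CRISPR/Cas9 with a scrambled guide RNA and so kept Il6. The 4 cxC26 IL6KOs1 tumors grew from subclone 1 of cxC26 cells whose Il6 had been knocked out with CRISPR/Cas9. All 8 were grown under the skin of adult male CD2F1 mice, which kept an intact Il6 gene of their own, and were taken once the host had cachexia. The day of collection and the number of cells injected were not given for the sequenced tumors. In other experiments of the study with CD2F1 mice, subclone 1 was injected in greater number than cxC26 scr. Its tumors at the stage of cachexia were also taken later. Because the knockout cells came from 1 subclone, the effect of losing Il6 and the particular history of that subclone cannot be told apart. Nor can either be told from a difference in tumor age or in cells injected, if the sequenced tumors had one.

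Epithelial cells adhere to each other through E-cadherin, the product of Cdh1, and are stiffened by filaments of paired keratins, among them keratin 8 and keratin 18. In an epithelial to mesenchymal transition these genes are silenced while N-cadherin, from Cdh2, and the filament protein vimentin, from Vim, take over. The zinc finger proteins of the Zeb and Snail families drive that switch in part by binding E-box elements in the promoters of epithelial genes. Vim, Zeb2 and the other mesenchymal genes are also used by fibroblasts, blood vessels or leukocytes, so in a tumor they do not come from carcinoma cells alone.

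Zeb and Snail proteins prefer the E-box CAGGTG, which reads CACCTG on the other strand, and promoters of 3 members that hold it are shown to place the epithelial genes and their repressors side by side. The RefSeq promoters (GRCm38.p6) of Epcam, Krt18, Vim, Zeb2 and Snai1 are described, and those of other members are not reported here. In the 250 bases before the RefSeq start site the motif, counted on both strands, occurred at positions -187 and -19 of Epcam, -214 of Krt18 and -126 of Snai1, each position being that of its first base. It was not found in those of Vim or in the 4 windows of Zeb2. Among 32851 RefSeq promoters, 17.2% held it in the same length, so it is a common word and its presence is a description only. Capitals mark the motif, and each stretch is given 5′ to 3′ on the strand of the gene. Epcam is at chr17:87635729-87635978 (plus strand), Krt18 at chr15:102027966-102028179 (plus strand) and Snai1 at chr2:167537945-167538194 (plus strand). The Krt18 stretch stops where the GENCODE gene starts.
Epcam: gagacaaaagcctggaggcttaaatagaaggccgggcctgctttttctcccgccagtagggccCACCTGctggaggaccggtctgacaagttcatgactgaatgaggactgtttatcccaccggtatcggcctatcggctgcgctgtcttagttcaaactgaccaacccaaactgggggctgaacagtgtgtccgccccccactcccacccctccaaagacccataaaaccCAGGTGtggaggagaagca
Krt18: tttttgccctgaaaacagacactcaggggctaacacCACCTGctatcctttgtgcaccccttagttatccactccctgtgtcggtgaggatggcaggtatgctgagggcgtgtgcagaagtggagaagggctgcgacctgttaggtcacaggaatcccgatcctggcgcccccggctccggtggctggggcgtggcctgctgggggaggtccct
Snai1: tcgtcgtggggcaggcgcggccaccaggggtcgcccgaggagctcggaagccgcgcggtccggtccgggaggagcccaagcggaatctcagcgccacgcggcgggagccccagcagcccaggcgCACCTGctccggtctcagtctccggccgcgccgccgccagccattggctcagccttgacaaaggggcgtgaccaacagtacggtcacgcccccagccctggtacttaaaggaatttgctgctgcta

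Polyadenylated RNA was sequenced, and the deposited level of a gene is the log2 of its reads divided by the library size, as CPM, with an offset that keeps genes without reads on the scale. Whole reads could be recovered from the values, and the 8 tumors had between 14158989 and 17048062 reads on genes. Il6 was read 356, 326, 376 and 438 times in the cxC26 scr tumors and 64, 56, 86 and 59 times in the cxC26 IL6KOs1 tumors, so its level fell by 2.45 on the log2 scale (limma, adjusted p = 1.76e-06), in the direction that the labels give. A gene was tested where 4 or more tumors had it at 1 CPM or above. Of the 13262 such genes, 39.8% passed an adjusted p of 0.05 with limma, 19.1% as higher and 20.7% as lower in cxC26 IL6KOs1, and the values of the groups did not overlap for 37.1%. Of 12 colon epithelium genes, 8 were below this filter, so most genes listed for the tissue of origin were at or near 0 in both groups. The other 4 included the keratin gene Krt20, which was abundant, with at least 17390 reads in every tumor. In bulk tumors fewer cells of a type and less RNA per cell cannot be told apart.

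Of the 10 identity genes, Cdh1, Krt18 and Vim were higher in cxC26 IL6KOs1 tumors, and Cdh2, Zeb1 and Snai1 were lower. Zeb2 and Snai2 did not pass the test, and Krt8 and Epcam were below the filter. The 8 genes tested were at 1 CPM or more in all 8 tumors. Against the 19.1% and 20.7% of all tested genes, 3 of these 8 were called higher and 3 lower. The values of the groups did not overlap for those 6 of the 8, against 37.1% of all tested genes. They did not overlap for Krt8 either, which was below the filter.

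**Figure D1:**
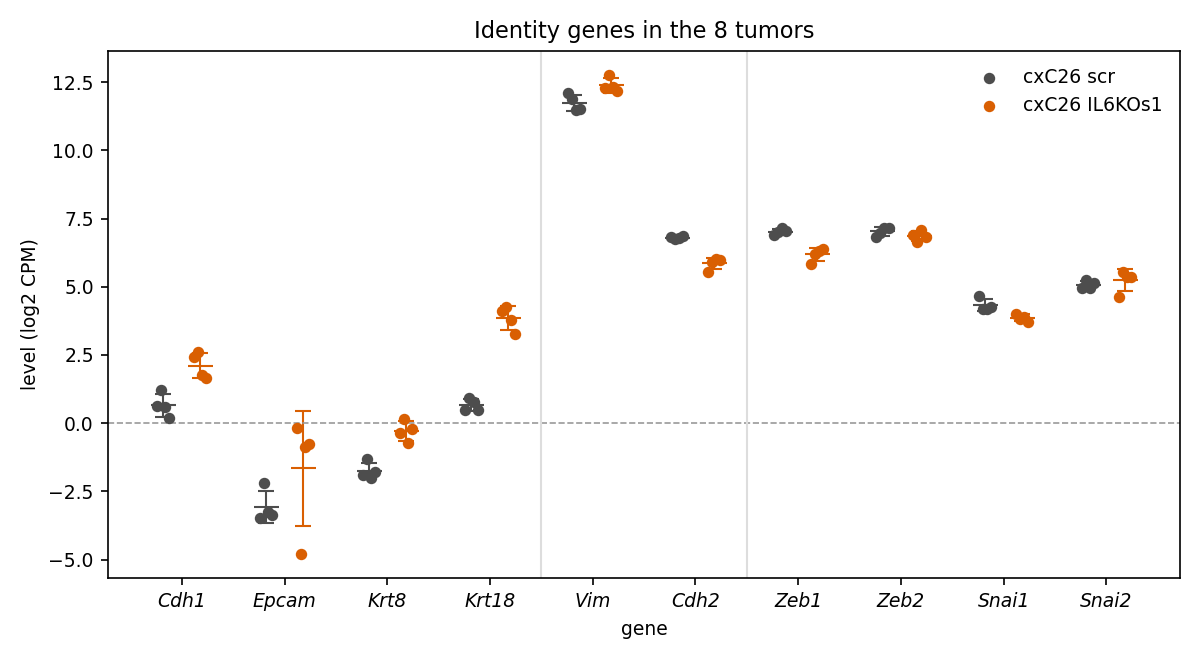
Level in log2 CPM of each identity gene in the 4 cxC26 scr (grey) and 4 cxC26 IL6KOs1 (orange) tumors, one point a tumor, with bars for the mean ± SD. Cdh1, Krt8 and Krt18 lie higher and Cdh2, Zeb1 and Snai1 lower in every cxC26 IL6KOs1 tumor, and 1 cxC26 IL6KOs1 tumor has the lowest Epcam value of all.

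Krt18 changed most of the identity genes tested. Its RNA, for the type I keratin that pairs with keratin 8 in simple epithelia, was read 23, 30, 24 and 21 times in the cxC26 scr tumors and 282, 268, 219 and 140 times in the cxC26 IL6KOs1 tumors. Every cxC26 IL6KOs1 tumor had more than 4 times the reads of any cxC26 scr tumor. The level went from 0.67 ± 0.22 to 3.87 ± 0.44 log2 CPM (SD, n = 4 in each group), a 9.19-fold rise (3.20 on the log2 scale, SE 0.23, limma, adjusted p = 3.02e-06). Only 47 of the 13262 genes tested had a larger rise.

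Krt8, the type II partner, stayed close to the limit of detection. Its gene lies on chromosome 15 of GRCm38 (101996698 to 102004482), 23697 bases from Krt18 (102028180 to 102032027). It was read 4, 6, 3 and 4 times in cxC26 scr and 12, 15, 9 and 12 times in cxC26 IL6KOs1. All cxC26 IL6KOs1 values lay above all cxC26 scr values, but 1 of the 8 tumors reached 1 CPM. Krt8 therefore did not enter the fit across genes, and an exact two-sided permutation test of its log2 CPM gave p = 0.0286, the smallest that 4 against 4 tumors can give, or 0.0571 after adjustment over Krt8 and Epcam. The ratio of its summed reads, scaled to depth, was 2.92, with an exact 95% interval of 1.65 to 5.42 that covers counting error only. An antisense RNA, Gm36026, overlaps exons of Krt8, and the strand setting of the read counts is not given in the sources used here.

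Per kilobase of transcript, Krt18 exceeded Krt8 in all tumors. The log2 difference was 2.83, 2.68, 3.25 and 2.70 in cxC26 scr and 4.94, 4.56, 4.98 and 3.94 in cxC26 IL6KOs1. As a mean the gap went from 7.29-fold to 24.3-fold, so the RNAs of the 2 partner keratins were further apart in the cxC26 IL6KOs1 tumors. The gap rests on 3 to 15 reads of Krt8 a tumor.

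Cdh1, for E-cadherin, lies on chromosome 8 (106603351 to 106670246). It was read 25, 37, 21 and 17 times in the cxC26 scr tumors and 87, 83, 53 and 45 times in the cxC26 IL6KOs1 tumors. The lowest cxC26 IL6KOs1 tumor was above the highest cxC26 scr tumor, at 3.14 against 2.32 CPM. The level rose 2.75-fold, from 0.65 ± 0.42 to 2.11 ± 0.47 log2 CPM (SD, n = 4; log2 change 1.46, SE 0.30, limma, adjusted p = 0.00251). It stayed low, with 11047 of the 13262 tested genes at a higher level in cxC26 IL6KOs1 tumors.

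Epcam, for an adhesion protein on the surface of most epithelial cells, lies on chromosome 17 (87635979 to 87651129). It had 1, 3, 1 and 1 reads in cxC26 scr and 14, 0, 8 and 8 reads in cxC26 IL6KOs1. In the cxC26 IL6KOs1 group 3 tumors were above every cxC26 scr tumor and the tumor without a read was below them all. For that tumor, 0 reads allow a level of up to 0.217 CPM. The groups overlapped and the difference was within the spread between tumors (-3.07 ± 0.58 against -1.65 ± 2.12 log2 CPM, exact two-sided permutation test, p = 0.229).

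Vim, for vimentin, was among the most abundant RNAs of both groups, exceeded by 8 tested genes in cxC26 scr and by 3 in cxC26 IL6KOs1. It lies on chromosome 2 (13573927 to 13582826). Its level was 4358, 3741, 2855 and 2924 CPM in the cxC26 scr tumors and 4981, 7013, 5183 and 4585 CPM in the cxC26 IL6KOs1 tumors. The groups did not overlap, though the highest cxC26 scr tumor came close to the lowest cxC26 IL6KOs1 tumor. The rise was 1.57-fold (log2 change 0.65, SE 0.19, limma, adjusted p = 0.0163). The call did not hold without cxC26 scr tumor 3 (adjusted p = 0.0597), without cxC26 scr tumor 4 (adjusted p = 0.0562) or when genes of low level were kept in the fit (adjusted p = 0.138).

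Cdh2, for N-cadherin, lies on chromosome 18 and went the other way. It was read 1909, 1725, 1560 and 1790 times in cxC26 scr and 764, 825, 1017 and 906 times in cxC26 IL6KOs1. The cxC26 scr tumors were nearly alike, and every cxC26 IL6KOs1 tumor was below them. The level fell from 6.80 ± 0.06 to 5.86 ± 0.21 log2 CPM (SD, n = 4), to 51.9% (log2 change -0.95, SE 0.10, limma, adjusted p = 5.05e-05). The mesenchymal members thus moved in opposite directions, Vim up and Cdh2 down.

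Set side by side per kilobase of transcript, N-cadherin RNA remained above E-cadherin RNA in all 8 tumors. The log2 difference was 6.10, 5.40, 6.05 and 6.55 in cxC26 scr and 3.00, 3.18, 4.12 and 4.19 in cxC26 IL6KOs1. The mean gap narrowed from 65.1-fold to 12.3-fold and the groups did not overlap. Vim and Krt18 differed by 10.99, 10.35, 10.09 and 10.42 in cxC26 scr and by 7.55, 7.89, 7.93 and 8.28 in cxC26 IL6KOs1. Both pairs were closer in every cxC26 IL6KOs1 tumor than in any cxC26 scr tumor, and in both the mesenchymal gene was still ahead.

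**Figure D2:**
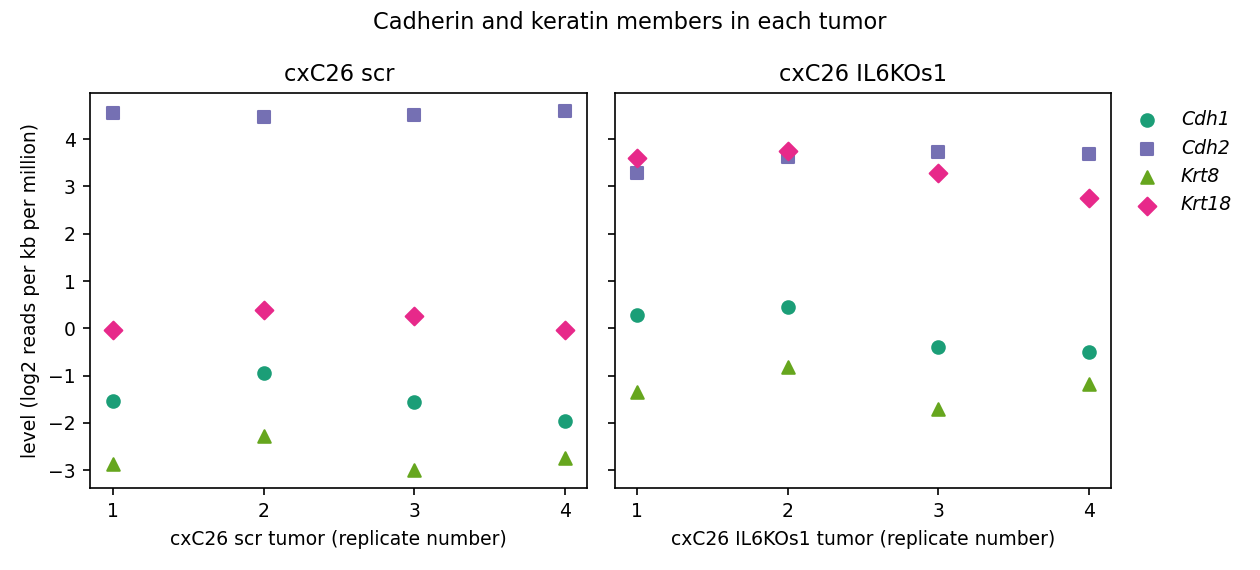
Levels of Cdh1, Cdh2, Krt8 and Krt18 in log2 CPM per kilobase (vertical axis) in each tumor (horizontal axis), with cxC26 scr on the left and cxC26 IL6KOs1 on the right. Krt18 lies far below Cdh2 in the cxC26 scr tumors and reaches or passes it in cxC26 IL6KOs1 tumors 1 and 2, while Cdh1 stays below Cdh2 in all 8.

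Of the repressors, Zeb1 fell most. Zeb1, a zinc finger and homeodomain factor encoded on chromosome 18, was read 1983, 2073, 2012 and 2055 times in cxC26 scr and 933, 1018, 1264 and 1216 times in cxC26 IL6KOs1. The groups did not overlap. The level fell from 7.02 ± 0.11 to 6.19 ± 0.24 log2 CPM (SD, n = 4), to 56.1% (log2 change -0.83, SE 0.12, limma, adjusted p = 0.000259). Gm10125, which overlaps exons of Zeb1 on the other strand, had 54 reads in all cxC26 scr tumors and 27 in all cxC26 IL6KOs1 tumors. The part of this overlap in the value of Zeb1 was not tested.

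Zeb2, its close relative, on chromosome 2 (44983632 to 45117395), did not pass the test. It was read 1903, 2040, 2008 and 2203 times in cxC26 scr and 1949, 1397, 2131 and 1635 times in cxC26 IL6KOs1, and the groups overlapped (log2 change -0.16, SE 0.11, limma, adjusted p = 0.245). The pair changed places in some tumors as a result. Per kilobase the log2 difference of Zeb1 over Zeb2 was 0.71, 0.68, 0.66 and 0.55 in cxC26 scr and -0.41, 0.20, -0.10 and 0.23 in cxC26 IL6KOs1. Zeb1 was thus ahead in all cxC26 scr tumors and Zeb2 in 2 of the 4 cxC26 IL6KOs1 tumors. Zeb2os, which overlaps exons of Zeb2 on the other strand, had 133 reads in all cxC26 scr tumors and 220 in all cxC26 IL6KOs1 tumors. The part of this overlap in the value of Zeb2 was not tested.

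Snai1, for the Snail repressor, lies on chromosome 2 (167538195 to 167542814). It was read 426, 296, 258 and 298 times in cxC26 scr and 263, 196, 232 and 191 times in cxC26 IL6KOs1. Scaled to depth the groups did not overlap, with cxC26 scr at 4.68, 4.20, 4.18 and 4.28 log2 CPM and cxC26 IL6KOs1 at 4.02, 3.83, 3.88 and 3.72 log2 CPM. The level fell to 72.2% (log2 change -0.47, SE 0.14, limma, adjusted p = 0.0171).

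Snai2, for the Slug repressor, lies on chromosome 16 (14705852 to 14709385) and was at 4.97, 5.25, 4.95 and 5.13 log2 CPM in cxC26 scr and 4.64, 5.56, 5.37 and 5.38 log2 CPM in cxC26 IL6KOs1. In cxC26 IL6KOs1 3 tumors were above every cxC26 scr tumor and tumor 1 was below them all. The mean difference was within the spread between tumors (log2 change 0.16, SE 0.17, limma, adjusted p = 0.491). Without cxC26 IL6KOs1 tumor 1 the difference passed the test (log2 change 0.36, adjusted p = 0.0234), and with the median of each chromosome removed, an alternative chosen after seeing the data, its direction turned (-0.0078).

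**Figure D3:**
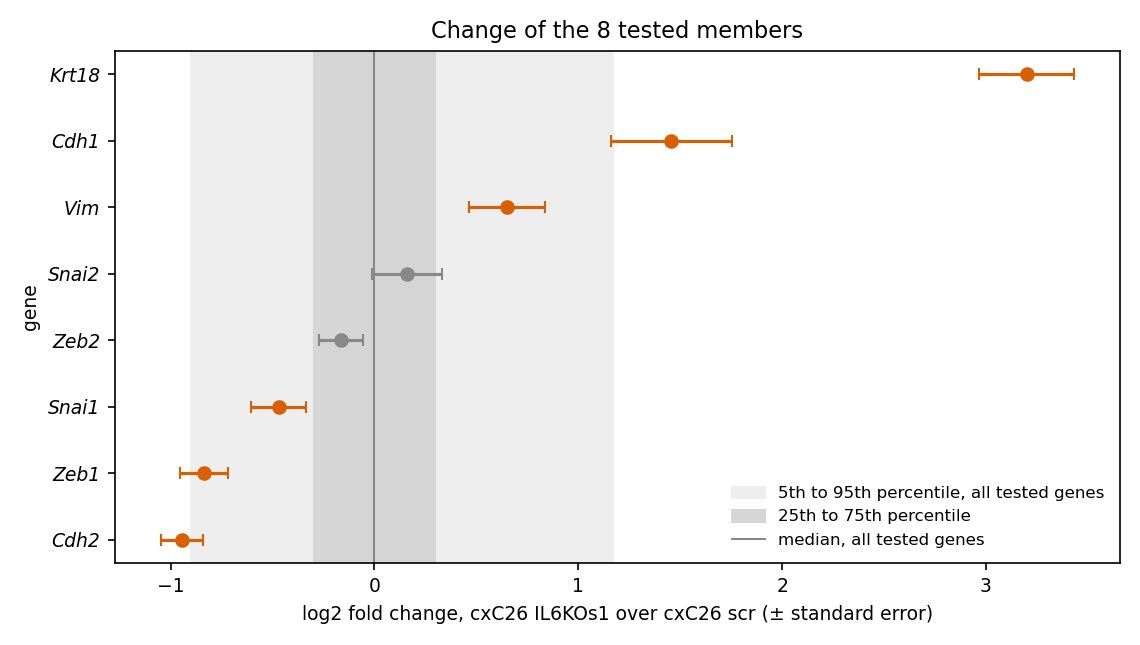
Log2 fold change of the 8 tested identity genes, cxC26 IL6KOs1 over cxC26 scr, with bars for the standard error, orange where the adjusted p was under 0.05 and grey where not. Krt18 and Cdh1 lie above the 95th percentile of all tested genes (1.17), and Cdh2 lies just below the 5th (-0.90).

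Within the cxC26 IL6KOs1 group the tumors were not alike. Tumors 1 and 2 had the highest Krt18 (17.4 and 19.4 CPM) and the highest Cdh1 (5.39 and 6.03 CPM). The same 2 tumors had the lowest Cdh2 (47.1 and 59.6 CPM) and the lowest Zeb1 (57.5 and 73.5 CPM). Tumors 3 and 4 had Krt18 at 13.9 and 9.70 CPM, Cdh1 at 3.39 and 3.14 CPM, and Zeb1 at 80.2 and 84.0 CPM. With 4 tumors this order is given as a description. Vim did not follow it, being highest in tumor 2 and next highest in tumor 3. Of the 4 repressors only Zeb1 followed it. Snai1 was highest in tumor 1 and lowest in tumor 4. Zeb2 was highest in tumor 3 and lowest in tumor 2, and Snai2 was highest in tumor 2 and lowest in tumor 1. Krt8 and Epcam, with few reads, did not follow it either.

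Per kilobase of the longest coding transcript, the mean levels of the cxC26 scr tumors ran from Vim (10.61 on the log2 scale) through Cdh2 (4.53), Zeb1 (4.49), Snai2 (4.06), Zeb2 (3.84) and Snai1 (3.64) to Krt18 (0.15), Cdh1 (-1.50), Krt8 (-2.72) and Epcam (-4.10). Neighbours overlapped for Cdh2 and Zeb1, for Snai2 and Zeb2, and for Zeb2 and Snai1. In the cxC26 IL6KOs1 tumors the order was Vim (11.26), Snai2 (4.22), Zeb2 (3.68), Zeb1 (3.65), Cdh2 (3.58), Krt18 (3.35), Snai1 (3.17), Cdh1 (-0.04), Krt8 (-1.26) and Epcam (-2.68). There each neighbour from Snai2 to Snai1 overlapped the next. Krt18 thus stood apart from the mesenchymal genes and repressors in cxC26 scr and among the repressors in cxC26 IL6KOs1.

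Other genes of epithelial adhesion moved both ways. Of 22 genes of epithelial junctions, 11 were tested, with 4 called higher, 2 lower and a median log2 change of -0.01. Over all tested genes 19.1% were called higher and 20.7% lower, with a median of -0.0029. Jup, for plakoglobin of adherens junctions and desmosomes, rose by 1.23 on the log2 scale (limma, adjusted p = 0.000321). The desmosomal plakophilin gene Pkp3 rose by 1.54 (adjusted p = 0.000109). The tight junction gene Tjp3 was read 5, 4, 6 and 7 times in cxC26 scr and 28, 15, 16 and 18 times in cxC26 IL6KOs1, a depth-scaled ratio of 3.62 (exact 95% interval 2.23 to 6.11). Ctnnb1, for beta-catenin and the most abundant of the list, had a change of -0.18 (adjusted p = 0.213). The others called were chosen after their values were seen. Pkp2, another plakophilin gene, was read 10, 12, 13 and 12 times against 22, 23, 26 and 17 times, a ratio of 1.94 (interval 1.35 to 2.82). Tjp3 and Pkp2 were at 1 CPM in 0 cxC26 scr tumors and entered the test through the cxC26 IL6KOs1 tumors alone, so their calls carry no weight beyond these reads. Ocln, for the tight junction protein occludin, fell by 1.11 (adjusted p = 0.00245), and Tjp1, for its partner ZO-1, fell by 0.44 (adjusted p = 0.00139). The call for Pkp2 was lost in 8 of 17 alternatives, with an adjusted p of up to 0.110, among them those without cxC26 scr tumor 1 or 2 or without cxC26 IL6KOs1 tumor 2 or 3, and that for Tjp1 with chromosome medians removed (adjusted p = 0.134).

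Among other keratins, 2 of 10 were tested. Krt20, a keratin of intestinal epithelium, was far more abundant than the members Krt8 and Krt18, with 17390 to 20024 reads in cxC26 scr tumors and 19720 to 22185 in cxC26 IL6KOs1 tumors. Its log2 CPM went from 10.20 ± 0.11 to 10.42 ± 0.05 (SD, n = 4), and this difference did not pass the test (0.21, limma, adjusted p = 0.102), although it did with chromosome medians removed (adjusted p = 0.0152). Krt80 rose by 1.60 (adjusted p = 0.000309), from 41 to 76 reads to 115 to 207 reads. The keratin genes therefore differed widely in level as well as in change.

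Of 12 epithelial regulators, 3 were tested. The zinc finger factor Klf4 rose by 1.36 (limma, adjusted p = 5.57e-05) and its relative Klf5 fell by 1.38 (adjusted p = 2.09e-05). Of 8 epithelial proteases and surface proteins, only Spint2, an inhibitor of serine proteases, was tested, with a change of 0.56 (adjusted p = 0.0889) that passed the test in 3 of 18 alternatives, one being without cxC26 IL6KOs1 tumor 4 (adjusted p = 0.0244). Of the 12 colon epithelium genes 4 were tested, with 1 called higher and 1 lower, against 19.1% and 20.7% of all tested genes. Cdx1 had at most 1 read in any tumor. Cdx2, an intestinal homeobox factor, was read 32, 24, 34 and 17 times in cxC26 scr and 1, 0, 0 and 0 times in cxC26 IL6KOs1, so its reads nearly vanished. The ratio of summed reads, scaled to depth, was 103, with an exact 95% interval of 18.2 to 4120 that covers counting error only. Cdx2 was at 1 CPM in 0 cxC26 IL6KOs1 tumors and entered the test through the cxC26 scr tumors alone, so its call adds nothing to these reads. Cdh17, for the intestinal cadherin, rose by 1.09 (adjusted p = 0.0193), a call lost without cxC26 scr tumor 4 (adjusted p = 0.0597) and with genes of low level kept in the fit (adjusted p = 0.0685).

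Of 8 further mesenchymal regulators, 7 were tested, with a median log2 change of -0.37. Among these 7, 1 was called higher and 4 lower, against 19.1% and 20.7% of all tested genes. Twist2 fell by 1.09 (limma, adjusted p = 8.2e-05), Prrx1 by 0.56 (adjusted p = 0.000761) and Twist1 by 0.43 (adjusted p = 0.00216). These are transcription factors of mesenchymal tissue, and all 3 were abundant, with at least 1316 reads in every tumor. With chromosome medians removed Prrx1 did not pass the test (adjusted p = 0.101).

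Of 12 mesenchymal effectors, all tested, 4 were called higher and 2 lower, against 19.1% and 20.7% of all tested genes. Their median log2 change was 0.22. Lox, for a collagen crosslinking enzyme, rose by 1.15 (limma, adjusted p = 0.0202) and the cadherin gene Cdh11 by 0.98 (adjusted p = 0.0124). Fn1, for fibronectin, fell by 0.95 (adjusted p = 0.0197). The calls for Lox and Fn1 were each lost in 4 of 18 alternatives, with an adjusted p of up to 0.0783 and 0.124. For Lox these included leaving out cxC26 scr tumor 3 or 4 or cxC26 IL6KOs1 tumor 2, and for Fn1 leaving out cxC26 scr tumor 1 or cxC26 IL6KOs1 tumor 2.

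**Figure D4:**
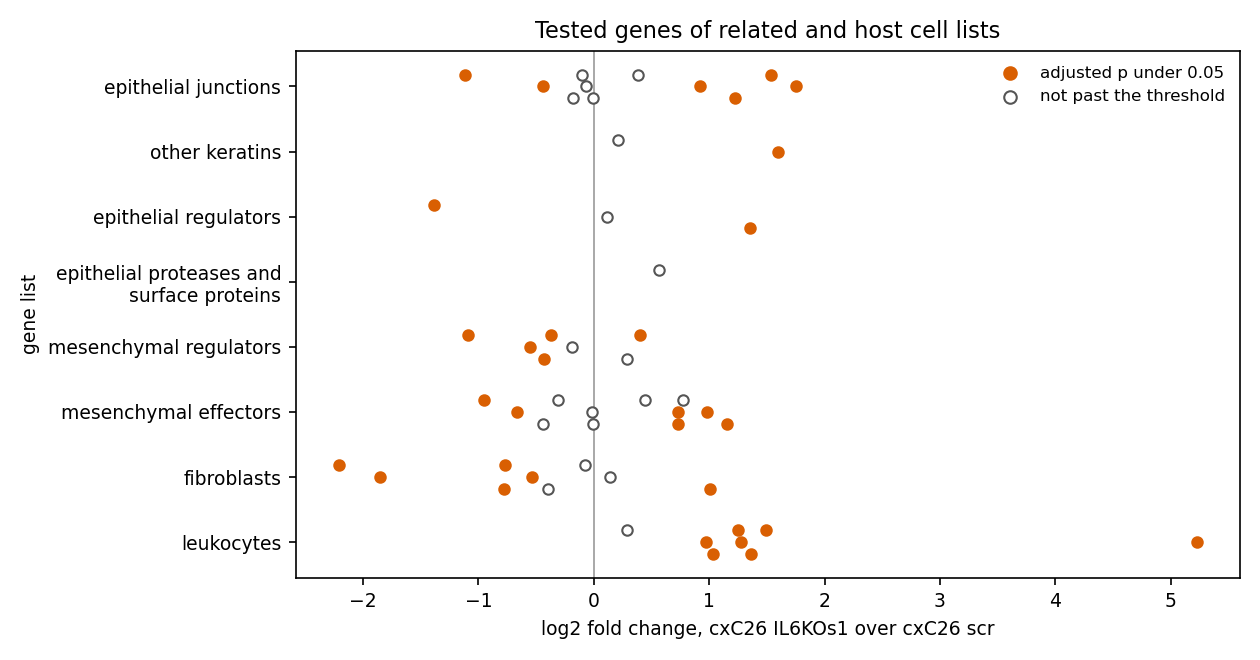
Log2 fold change, cxC26 IL6KOs1 over cxC26 scr, of each tested gene (points) in the lists of related genes and of fibroblasts and leukocytes (rows), filled where the adjusted p was under 0.05. Epithelial junction genes and mesenchymal effectors lie on both sides of 0. Of 8 leukocyte genes 7 lie higher and past the threshold, against 19.1% of all tested genes.

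Genes used as markers of host cells also differed between the groups, though in bulk tumors the cells that made these RNAs were not identified. Of 8 tested leukocyte genes 7 were called higher and none lower, against 19.1% and 20.7% of all tested genes. Their median log2 change was 1.26. The summed level of the list was 218 to 256 CPM in cxC26 scr and 423 to 814 CPM in cxC26 IL6KOs1. Ptprc, the pan-leukocyte gene for CD45, rose by 1.03 (limma, adjusted p = 0.00954) and the macrophage gene Cd68 by 1.28 (adjusted p = 0.000107). Adgre1, for the macrophage protein F4/80, rose 2.82-fold (adjusted p = 5.36e-05), and Itgam, for CD11b, rose by 1.36 on the log2 scale (adjusted p = 0.000208). The T cell gene Cd8a had 5 reads in all cxC26 scr tumors and 222 in all cxC26 IL6KOs1 tumors, and of the 7 genes it alone entered the test through the cxC26 IL6KOs1 tumors only. Leukocytes use Vim and Zeb2, and their part in those values was not tested.

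Of 9 fibroblast genes, all tested, 1 was called higher and 5 lower, against 19.1% and 20.7% of all tested genes. Their median log2 change was -0.53. Summed levels were 8350 to 11002 CPM in cxC26 scr and 5666 to 8824 CPM in cxC26 IL6KOs1. The growth factor receptor genes Pdgfra and Pdgfrb fell by 0.78 (limma, adjusted p = 0.00135) and 0.77 (adjusted p = 0.00126), Thy1 fell by 2.21 (adjusted p = 9.74e-07) and Fap fell by 1.86 (adjusted p = 4.48e-05). Lum, for the matrix protein lumican, rose by 1.01 (adjusted p = 0.00565). Col3a1, the most abundant of the list, fell by 0.53 (adjusted p = 0.0275), a call lost in 7 of 18 alternatives with an adjusted p of up to 0.427, among them those without cxC26 scr tumor 1, 2 or 3 or without cxC26 IL6KOs1 tumor 1 or 2. Fibroblasts use Cdh2, Zeb1 and Snai1, and the part of the fibroblast genes in the lower values of these members was not tested.

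Of 6 endothelial genes 1, Vwf, was called lower (log2 change -0.78, limma, adjusted p = 0.00515), against 20.7% of all tested genes. The endothelial genes Pecam1 and Cdh5 had changes of 0.05 (adjusted p = 0.754) and -0.10 (adjusted p = 0.666). Of the 6 skin keratinocyte genes Krt10 alone was tested (log2 change -0.29, adjusted p = 0.221). Their summed level was 11.5 to 25.95 CPM in cxC26 scr and 9.42 to 14.3 CPM in cxC26 IL6KOs1, and the part of these cells in the values of Krt18 and Cdh1 was not tested. Of 5 skeletal muscle and 4 adipocyte genes tested, 0 were called by limma, against 39.8% of all tested genes. In each list 0 had an unadjusted p under 0.05. Log2 changes were 1.77 for Myh4 (adjusted p = 0.181, and 0.0404 without cxC26 scr tumor 2), 1.07 for Ckm (adjusted p = 0.335), 0.83 for Acta1 (adjusted p = 0.519) and 0.11 for Fabp4 (adjusted p = 0.706), with Adipoq at -0.09 (adjusted p = 0.846) and Plin1 at 0.13 (adjusted p = 0.807).

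The genes whose levels ran most closely with those of the 3 tested members of largest change were named by Pearson's r over the 8 tumors. For Krt18 these were Rdh10, Lysmd2 and S100a13 (r = 0.998, 0.998 and 0.997). For Cdh1 they were Sri, Slc25a38 and Ccl12 (r = 0.980, 0.979 and 0.975), and for Cdh2 they were Gcnt2, Sox5 and Lef1 (r = 0.996, 0.995 and 0.994). All 8 points share the split into 2 groups, and 926 genes had r above 0.9 with Krt18, so closeness of this kind was common.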

How the data were processed

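Tumor RNA of 8 mice was measured by RNA-seq. The authors trimmed the reads, aligned them with HISAT2 (build mm10), summed them by gene with featureCounts and deposited log2 CPM from limma-voom for 27179 genes. The sample titles gave 4 tumors a group. Inverting the voom offsets (0.5 reads, 1 read in the library size) gave whole reads for 100% of values within 0.01 reads, with a median of 15384974 a tumor. The depth limits genes with few reads. Differences were tested in R 4.3.3 with limma 3.58.1 (lmFit, eBayes with trend) fitted to log2 CPM as deposited, for the 13262 genes that reached 1 CPM in 4 or more tumors, without covariates, with Benjamini-Hochberg adjustment and a threshold of 0.05. Intervals of read ratios are exact, at 95%. P-values measure the spread between tumors. Levels per kilobase used the longest coding transcript of GENCODE M21, as did gene positions. The best copies of Krt8 and Krt18 elsewhere in the GENCODE transcripts, 98.6% and 90.5% identical over 941 and 1267 bases, have no value in the table.

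The identity genes and gene lists were chosen with earlier results of these data known. Named in each list are the most abundant gene, up to 3 called genes of largest change and, for cell types, the first 2 genes. Alternatives were another filter, scaling, variance model, weights and pseudocount, a replicate block, each tumor left out, and, chosen after seeing the data, removal of chromosome medians. Some results are not reported here.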

Additional observations from a re-analysis of the deposited data

Results flagged for a closer look

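In 46 groups of 4 tumors, covering the identity genes and the summed levels of gene lists, 2 values lay apart from the others of their group by Dixon's criterion at 95%, and chance flags about 2.3 of 46. The summed level of 6 skin keratinocyte genes was 25.95 CPM in cxC26 scr tumor 1 and 11.5 to 13.6 CPM in the other cxC26 scr tumors. That tumor's Cdh1, Krt8 and Krt18 lay within the range of the other cxC26 scr tumors. Epcam was at -4.79 log2 CPM, with 0 reads, in cxC26 IL6KOs1 tumor 2 and at -0.89 to -0.16 log2 CPM in the others. The same tumor had the highest Krt18, Krt8 and Cdh1 of its group.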

How the results depend on the processing

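The directions and calls of Cdh1 and Krt18 held under 17 alternatives each and those of Cdh2, Zeb1 and Snai1 under 18 each. Log2 changes ranged from 1.05 to 1.64 for Cdh1, 2.59 to 3.40 for Krt18, -0.997 to -0.84 for Cdh2, -0.90 to -0.72 for Zeb1 and -0.52 to -0.36 for Snai1. Requiring a mean of at least 3 log2 CPM left 1 identity gene called higher, Vim, because Cdh1 and Krt18 were then not tested. Keeping genes of low level gave adjusted p = 0.0619 for Krt8 and 0.457 for Epcam. Leaving out each tumor gave 4223 to 5214 genes called (2023 to 2540 higher, 2193 to 2674 lower), and 5 to 7 identity genes called (2 to 4 higher, 3 lower). Directions turned with chromosome medians removed for Snai2 (-0.0078) and Fabp4 (-0.0735), with quantile normalization for Plin1 (-0.028), and with a tumor left out for Plin1 (-0.21 to 0.40), Cdh5 (-0.18 to 0.061), Adipoq (-0.27 to 0.11), Pecam1 (-0.0052 to 0.13), Acta1 (-0.050 to 1.54) and Fabp4 (-0.11 to 0.28), of which none was called as deposited. The cause was not tested.

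Replicate numbers are shared by the groups, but same-numbered tumors did not deviate together (correlations -0.06, 0.06, 0.02 and -0.06). With the replicate number as a block 5165 genes and 6 identity genes were called. Depth limits Epcam and Krt8, with 15 reads or fewer a tumor.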

Other observations

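Keratin genes below the filter on low levels also differed in reads, and they are named here after their values were seen. Krt23 had 33, 5, 10 and 9 reads in cxC26 scr tumors and 0, 0, 0 and 1 in cxC26 IL6KOs1 tumors, and the groups did not overlap. The ratio of summed reads, scaled to depth,, cxC26 scr over cxC26 IL6KOs1, was 55.1 with an exact 95% interval of 9.49 to 2212. Krt7, a keratin of simple and ductal epithelia, had 2, 1, 0 and 1 reads against 7, 5, 4 and 6, a ratio of 5.69 in favour of cxC26 IL6KOs1 (interval 1.93 to 22.7). Krt7 thus lay on the side of Krt8 and Krt18, and Krt23 on the other. Krt5, Krt14 and Krt15, keratins of the basal layer of stratified epithelia, had 59, 28 and 28 reads in cxC26 scr tumor 1 and at most 3 in any other tumor. The intervals cover counting error only.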
